A study of Mus musculus with 3 samples.

Results

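The genes described here move chloride across the neuronal membrane or control that movement. They are the cation-chloride cotransporter genes Slc12a2, Slc12a5 and Slc12a7, the WNK kinase genes Wnk1, Wnk2 and Wnk3, and Stk39 and Oxsr1, which encode the kinases SPAK and OSR1. They were chosen by symbol, and all 8 were found among the 32532 genes listed. The counts came from messenger RNA bound to tagged ribosomes in the cortex-amygdala transition zone (CxA), where ventral cortex borders the amygdala. The mice were adult, untreated animals of the Lypd1-TRAP line OI82, in which regulatory DNA of Lypd1 drives EGFP fused to the ribosomal protein Rpl10a, so that anti-EGFP antibodies pull down polysomes of the tagged cells. There was 1 group with 3 immunopurified (IP) libraries, called replicates 1, 2 and 3, and no unpurified or treated sample was analysed here. Whether a library held 1 mouse or pooled mice was not given in the sources used here. Errors thus describe the spread between these libraries, and p-values rest on libraries rather than on a known number of mice.

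KCC2, the product of Slc12a5, carries potassium and chloride out of the cell, and NKCC1, the product of Slc12a2, carries sodium, potassium and chloride in. Their balance is a main determinant of neuronal chloride, and so of whether GABA-A receptor currents hyperpolarize or depolarize a neuron. WNK kinases, which are inhibited by chloride, phosphorylate SPAK and OSR1, and these in turn phosphorylate the cotransporters, which activates NKCC1 and inhibits the potassium-chloride exporters.

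Gene counts totalled 18526251 in replicate 1, 24690301 in replicate 2 and 8668527 in replicate 3, the shallowest library. Levels are CPM, a gene's count divided by the sum of all gene counts in that library, per 1000000. Different genes are compared as CPM per kb of exon, except where CPM is named. The pathway lists below are ordered by mean CPM, which also depends on exon length. A level of 3 counts, the floor below which a gene was not read as present, is 0.162, 0.122 and 0.346 CPM in the 3 libraries, and floors and intervals cover counting error only. The 8 pan-neuronal markers, all detected (1 CPM or more in each library), summed to 12210, 18056 and 9763 CPM in replicates 1, 2 and 3. Snap25 alone gave 7606, 13127 and 6317 CPM of these sums. With no unpurified sample here, the markers cannot check which neurons carried the tag. Astrocyte markers (8 of 8 detected) summed to 2162, 1344 and 1338 CPM, oligodendrocyte markers (7 of 8) to 404, 243 and 236 CPM, and oligodendrocyte precursor markers (6 of 6) to 189, 121 and 251 CPM. The sums for microglia (3 of 7 detected) lay between 21.1 and 39.9 CPM, for endothelium (4 of 6) between 24.2 and 50.6 CPM, for mural cells and fibroblasts (5 of 6) between 40.6 and 153 CPM, and for choroid plexus and ependyma (4 of 9) between 48.6 and 111 CPM. Glial and vascular RNA was thus present beside neuronal RNA in all 3 libraries, and its part in the levels below was not tested.

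Slc12a5, the neuronal chloride exporter gene, was the most abundant cotransporter of the set and the steadiest gene in it. It measured 291, 234 and 299 CPM in replicates 1, 2 and 3, from 5394, 5781 and 2593 counts, with a mean of 275 ± 35.4 CPM (SD, n = 3). Replicate 2 was the lowest, and the highest library exceeded it 1.28-fold. Per kb of exon the level was 36.9 ± 4.76 CPM, which was on average at percentile 92.9 among the genes detected that have an annotated length. In bulk RNA of this kind fewer cells of a type and less RNA per cell cannot be told apart.

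Slc12a5 spans positions 164960802 to 164999731 on the plus strand of chromosome 2 (GRCm38), with 10 annotated transcripts, and its alternative first exons are known to give the isoforms KCC2a and KCC2b. The counts sum all transcripts of the gene and do not separate these starts. The RefSeq promoter windows (GRCm38.p6, plus strand, 250 bases before to 50 after each start) are shown because the gene has 2 of them. The capitals mark CACGTG, the palindromic E-box bound by USF transcription factors, which reads the same on both strands.
Slc12a5 upstream start, chr2:164960596-164960895: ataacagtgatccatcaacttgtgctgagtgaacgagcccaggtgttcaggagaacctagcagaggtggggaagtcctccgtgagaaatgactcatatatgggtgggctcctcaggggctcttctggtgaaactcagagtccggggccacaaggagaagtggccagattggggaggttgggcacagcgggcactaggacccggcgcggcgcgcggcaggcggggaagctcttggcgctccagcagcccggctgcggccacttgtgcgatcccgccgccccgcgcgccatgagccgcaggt
Slc12a5 downstream start, chr2:164967738-164968037: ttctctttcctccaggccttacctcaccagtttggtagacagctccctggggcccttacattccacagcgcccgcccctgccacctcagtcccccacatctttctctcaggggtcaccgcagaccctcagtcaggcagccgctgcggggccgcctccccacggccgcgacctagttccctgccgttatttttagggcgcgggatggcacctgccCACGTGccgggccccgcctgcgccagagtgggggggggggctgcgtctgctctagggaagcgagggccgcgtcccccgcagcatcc
The motif was found once in the downstream window, with its first base at position -36 from the start, and not in the upstream window. Of 32851 mouse promoter windows of 300 bases, 7.15% held it. Of 9 windows for 7 of the 8 genes, 3 held it, the other 2 being overlapping windows of Slc12a7. The windows were 63.7% and 68.3% G or C, against a median of 52.7% over all windows. Usf1, which encodes a factor known to bind this E-box and was named after its values were seen, measured 4.43, 8.67 and 12.9 CPM in replicates 1, 2 and 3.

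Slc12a7, which encodes the potassium-chloride exporter KCC4, was the lowest gene of the set. It measured 7.07, 2.31 and 4.85 CPM in replicates 1, 2 and 3, from 131, 57 and 42 counts, with a mean of 4.74 ± 2.38 CPM (SD, n = 3). Replicate 1 exceeded replicate 2 by 3.06-fold, the widest spread among the 8 genes. Per kb its level was 0.374 ± 0.188 CPM, on average at percentile 2.10 of the genes detected. The summed mural and fibroblast markers were also highest in replicate 1 (153 CPM, against 48.4 and 40.6 in replicates 2 and 3). So were the sums for astrocytes, oligodendrocytes and microglia, although single markers in each of these lists peaked in another replicate. Like Slc12a7, the microglia sum was lowest in replicate 2, whereas the other sums highest in replicate 1 were lowest in replicate 3. Sums for neurons and endothelium peaked in replicate 2, and those for oligodendrocyte precursors and choroid plexus with ependyma in replicate 3. The part of these cells in the spread of Slc12a7 was not tested.

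Slc12a2, the importer gene, stood between these exporters. Its values were 20.8, 18.9 and 26.2 CPM in replicates 1, 2 and 3, from 385, 467 and 227 counts, and the mean was 22.0 ± 3.78 CPM (SD, n = 3). Its libraries differed by at most 1.38-fold. Length-corrected, it reached 2.01 ± 0.346 CPM per kb, on average at percentile 20.6. NKCC1 is also known from glia and from the choroid plexus epithelium. The choroid plexus transcript Ttr measured 1.35, 3.97 and 54.6 CPM in replicates 1, 2 and 3, so both genes were highest in replicate 3, and Ttr was the 1 gene of the marker lists called as varying between libraries (edgeR, adjusted p = 0.00147). Folr1 and Otx2, further choroid plexus markers, had 0 counts in replicates 1 and 2 and 5 and 14 counts in replicate 3, and Aqp1 had 0, 1 and 2 counts. The list did not move as one, since Kl (30.5, 4.13 and 11.997 CPM) and Clic6 (22.1, 2.35 and 3.58 CPM) were highest in replicate 1 and Prlr (12.7, 36.5 and 23.1 CPM) in replicate 2, and its part in the level of Slc12a2 was not tested. The remaining members, Kcnj13 (2.86, 0.729 and 13.2 CPM) and Foxj1 (1.30, 0.932 and 2.31 CPM), were highest in replicate 3. Without replicate 3 the mean of Slc12a2 was 19.8 CPM.

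**Figure D1:**
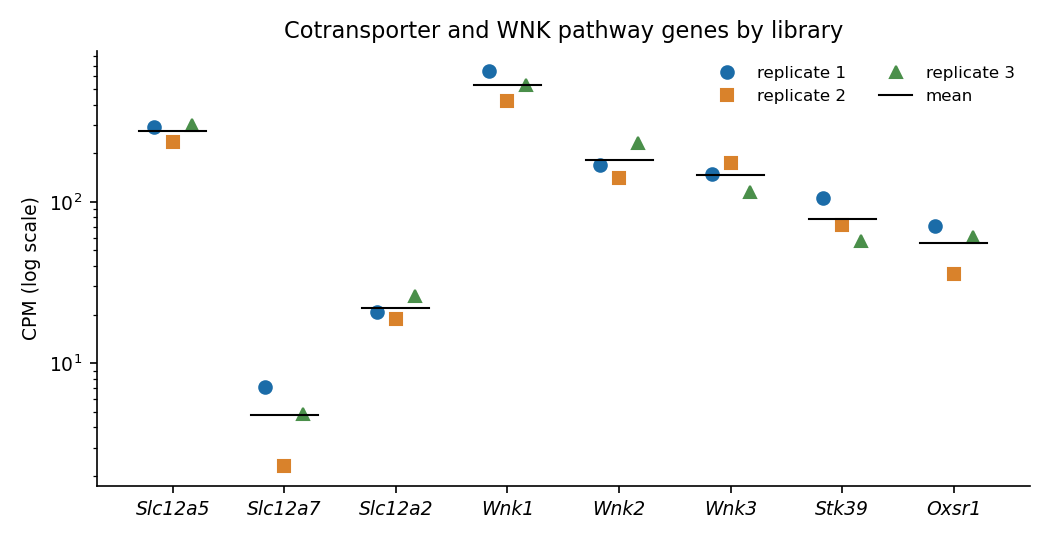
CPM (log scale) of the 8 genes in each of the 3 libraries, with points for single libraries and a line for their mean. Slc12a5 lies between 234 and 299 CPM, Slc12a2 between 18.9 and 26.2 and Slc12a7 between 2.31 and 7.07, with no overlap between these 3 genes.

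The ratio of exporter to importer transcripts was nearly the same in each library. Slc12a5 exceeded Slc12a2 by 14.0, 12.4 and 11.4 times in CPM in replicates 1, 2 and 3, a mean ratio of 12.6 ± 1.31 (SD, n = 3). Per kb of exon the ratios were 20.5, 18.2 and 16.8, and the mean log2 ratio was 4.20 ± 0.15, positive in 3 of 3 libraries. The highest and lowest ratio differed by 1.23-fold, less than the levels of either gene did. Counted as a share, Slc12a2 made up 6.66% of the counts of both genes in replicate 1 (95% Clopper-Pearson interval 6.03% to 7.34%), 7.47% in replicate 2 (6.83% to 8.15%) and 8.05% in replicate 3 (7.07% to 9.12%). The intervals of replicates 1 and 3 overlap, as do those of neighbouring libraries. Such overlap does not show that the shares are equal, and a difference between the shares was not tested. An exact permutation test that flips the sign of each library's log2 ratio (two-sided) gave p = 0.25, the smallest that 3 libraries can give, with adjusted p = 0.292 over the 7 pairs tested (Benjamini-Hochberg), so the design cannot reach a threshold of 0.05. With the longest annotated transcript as the length the ratio was 13.6, and without replicate 3 it was 19.3 per kb of exon.

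Against Slc12a7 the distance was wider and less even. Slc12a5 was 70.0, 173 and 105 times as high per kb in replicates 1, 2 and 3, with a mean log2 ratio of 6.76 ± 0.65, positive in 3 of 3 libraries. Slc12a7 was below Slc12a2 in 3 of 3 libraries, by a mean log2 ratio of -2.56 ± 0.74 per kb. Both differences exceeded their spread, and for both the exact permutation test gave p = 0.25, adjusted to 0.292. Without any length correction the first ratio was 63.6 in place of 108.

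The further Slc12 family genes reported here were low or at the floor. Slc12a9, a family member whose transport activity is less clear, measured 13.3, 3.04 and 18.3 CPM. Slc12a4, the gene of the widely expressed exporter KCC1, measured 0.864, 1.70 and 5.19 CPM and was not detected in all libraries. Slc12a1 and Slc12a3, known for salt uptake in the kidney, had 0, 1 and 21 counts and 2, 0 and 2 counts in replicates 1, 2 and 3, and Slc12a8 had 2, 3 and 2 counts. The 21 counts of Slc12a1, 2.42 CPM, came from replicate 3, the library with the most Ttr, and a link between these genes was not tested.

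All 3 WNK kinase genes of the set were well above the floor, and their order depended on the library and on the length used. Wnk1, the broadly expressed founding member, measured 652, 421 and 528 CPM in replicates 1, 2 and 3, a mean of 534 ± 115 CPM (SD, n = 3). Replicate 1 was the highest and replicate 2 the lowest, 1.55-fold apart. Wnk2, a family member enriched in brain, measured 170.4, 141 and 231 CPM, with a mean of 181 ± 46.2 CPM and replicate 3 the highest. Wnk3, an X-linked kinase known to activate NKCC1 and inhibit KCC2, measured 149.9, 175 and 115 CPM, with a mean of 147 ± 29.8 CPM, and here replicate 2 was the highest. Each WNK gene thus peaked in a different library.

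Per kb of exon the levels were 23.4 ± 5.06 CPM for Wnk1, 21.3 ± 5.45 for Wnk2 and 13.9 ± 2.82 for Wnk3 (SD, n = 3). The log2 ratio of Wnk1 to Wnk2 was 0.51, 0.15 and -0.24 in replicates 1, 2 and 3, so its sign was not the same in all libraries (mean 0.14 ± 0.37; p = 0.75 by the exact permutation test, adjusted to 0.75). It was -0.041 without replicate 1. Wnk1 exceeded Wnk3 in 3 of 3 libraries, with a mean log2 ratio of 0.75 ± 0.51, and Wnk2 exceeded Wnk3 by 0.61 ± 0.66, a mean smaller than its spread, since replicate 2 gave 0.0064 and replicate 3 gave 1.32. For both the exact permutation test gave p = 0.25, adjusted to 0.292.

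The rank of Wnk1 depended on the length used. Its 26 annotated transcripts merge to 22825 bases of exon, against 11330 bases for the longest one. With the latter as length Wnk1 reached 47.1 ± 10.2 CPM per kb and exceeded Wnk2 in 3 of 3 libraries, 1.81-fold on average in place of 1.10-fold, and Wnk3 by 2.74-fold in place of 1.69-fold. A part of the Wnk3 exons, 523 bases or 4.94%, is shared with A230072E10Rik, a transcript on the opposite strand with 125, 406 and 51 counts in replicates 1, 2 and 3, highest like Wnk3 in replicate 2. The strand setting of the counting was not given in the sources used here, and reads in that stretch cannot be told apart. No other gene of the set shares annotated exon bases with another gene.

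Wnk4, the remaining kinase of the family, was detected at a lower level, with 20.3, 6.12 and 22.0 CPM in replicates 1, 2 and 3. Of the summed WNK level per kb it took 7.23%, 2.78% and 7.97%. Wnk1 took 42.2%, 34.8% and 34.7%, Wnk2 29.7%, 31.3% and 40.9%, and Wnk3 20.9%, 31.1% and 16.4%. No WNK gene took more than 42.2% with this length. With the longest transcript Wnk1 reached 55.0% in replicate 1.

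**Figure D2:**
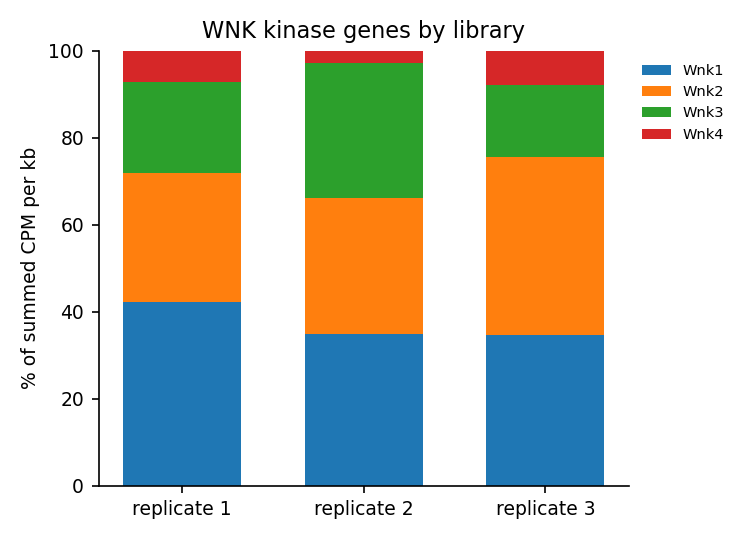
Percentage of the summed CPM per kb of exon taken by each of Wnk1 to Wnk4, with 1 stacked bar per library. No WNK gene exceeds 42.2% in any library, and the share of Wnk3 runs from 16.4% in replicate 3 to 31.1% in replicate 2.

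The kinases that carry the WNK signal to the transporters were both expressed. Stk39, the SPAK gene, measured 106, 71.8 and 57.1 CPM in replicates 1, 2 and 3, with a mean of 78.3 ± 25.1 CPM (SD, n = 3). Oxsr1, the OSR1 gene, measured 70.9, 35.8 and 60.7 CPM, with a mean of 55.8 ± 18.1 CPM. Both were highest in replicate 1, while the lowest library was replicate 3 for Stk39 and replicate 2 for Oxsr1. Per kb of exon Stk39 reached 15.8 ± 5.06 and Oxsr1 10.4 ± 3.38 CPM. Oxsr1 lay below Stk39 in 3 of 3 libraries, with log2 ratios of -0.69, -1.12 and -0.023 in replicates 1, 2 and 3 and a mean of -0.61 ± 0.55 (p = 0.25 by the exact permutation test, adjusted to 0.292). In replicate 3 the levels of both kinases per kb were nearly equal, 11.5 CPM for Stk39 and 11.3 CPM for Oxsr1.

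**Figure D3:**
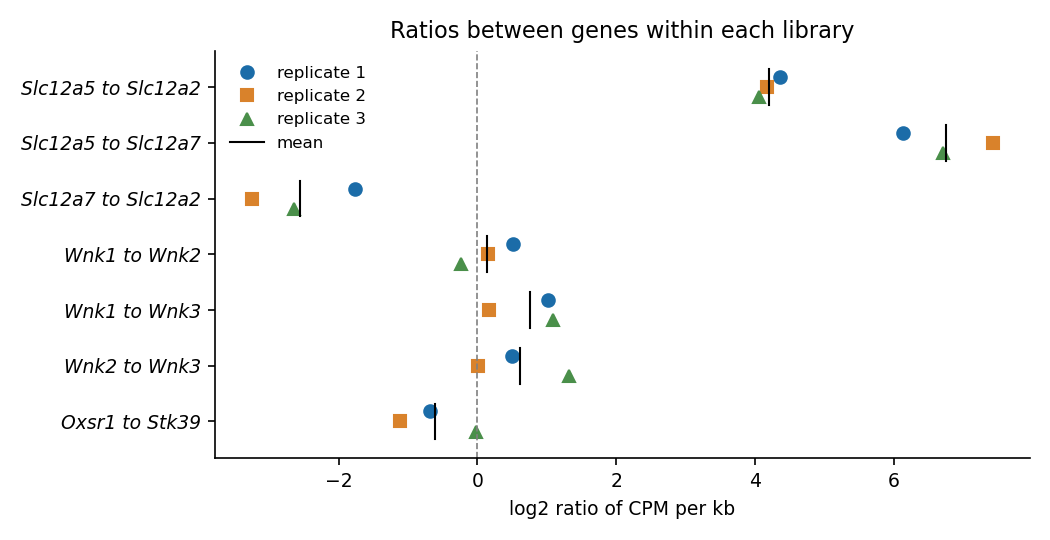
Log2 ratio of CPM per kb of exon for the 7 gene pairs in each library, with points for single libraries, a line for their mean and a dashed line at equal levels. Slc12a5 to Slc12a2 lies between 4.07 and 4.36 in all libraries, while the points of Wnk1 to Wnk2 fall on both sides of 0.

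Ordered by level per kb of exon, the set ran Slc12a5, Wnk1, Wnk2, Stk39, Wnk3, Oxsr1, Slc12a2 and Slc12a7. Slc12a5 was first, Slc12a2 seventh and Slc12a7 last in 3 of 3 libraries. The 5 kinase genes between them changed places from library to library. Slc12a5 exceeded Wnk1 by 0.67 ± 0.19 on the log2 scale and Oxsr1 exceeded Slc12a2 by 2.33 ± 0.43, both more than the spread. The steps from Wnk1 to Wnk2, Wnk2 to Stk39, Stk39 to Wnk3 and Wnk3 to Oxsr1 were each smaller than their spread, with the higher gene ahead in 2 of 3 libraries. With the longest transcript as length Wnk1 and Slc12a5 were not separated (log2 difference 0.033 ± 0.190), and Slc12a2 and Slc12a7 kept the last places in 3 of 3 libraries.

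**Figure D4:**
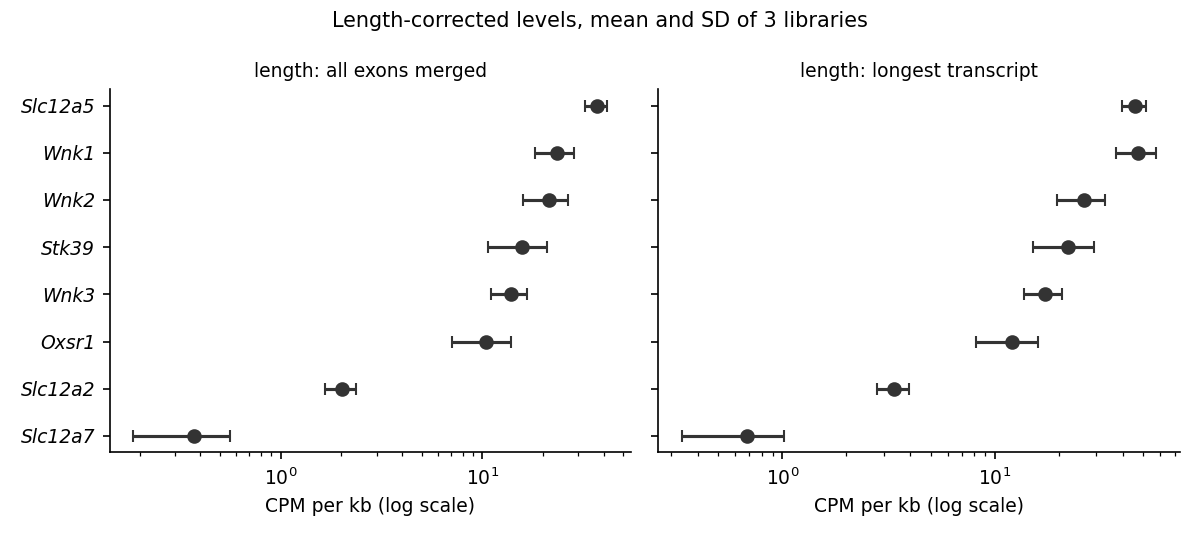
Mean CPM per kb (log scale) with the SD of 3 libraries for the 8 genes, with all annotated exons merged as the length (left) or the longest transcript (right). Slc12a5 leads on the left at 36.9, Wnk1 and Slc12a5 are level on the right at 47.1 and 45.6, and Slc12a7 is the lowest on both sides.

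None of the 8 genes was called as varying between the libraries. The goodness-of-fit test of edgeR's intercept-only model, fitted to the 15336 genes whose mean reached 1 CPM, called 0.222% of genes at an adjusted p under 0.05, and 0 of the 8 were among them. Their adjusted p-values in this edgeR fit ran from 0.957 to 0.998. At an unadjusted p under 0.05 it was 0 of 8 as well, beside 7.09% of all genes tested, and DESeq2 marked 0 of 8 as dispersion outliers. The test asks for variation above the trend over all genes, so a p that misses the threshold does not show that the levels were equal.

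The log2 range between the highest and lowest library had a median of 0.67 over the 8 genes, a 1.60-fold difference. Over the 14803 tested genes with a count in every library it was 1.09, or 2.14-fold, and over the 9765 genes of 10 CPM or more 0.88. Slc12a5 had the narrowest range of the set at 0.35 and Slc12a2 the next at 0.47, although Slc12a2 was much the lower of this pair. Slc12a7 had the widest at 1.61, with a level in the class of 1 to 10 CPM, where the median range was 2.03.

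**Figure D5:**
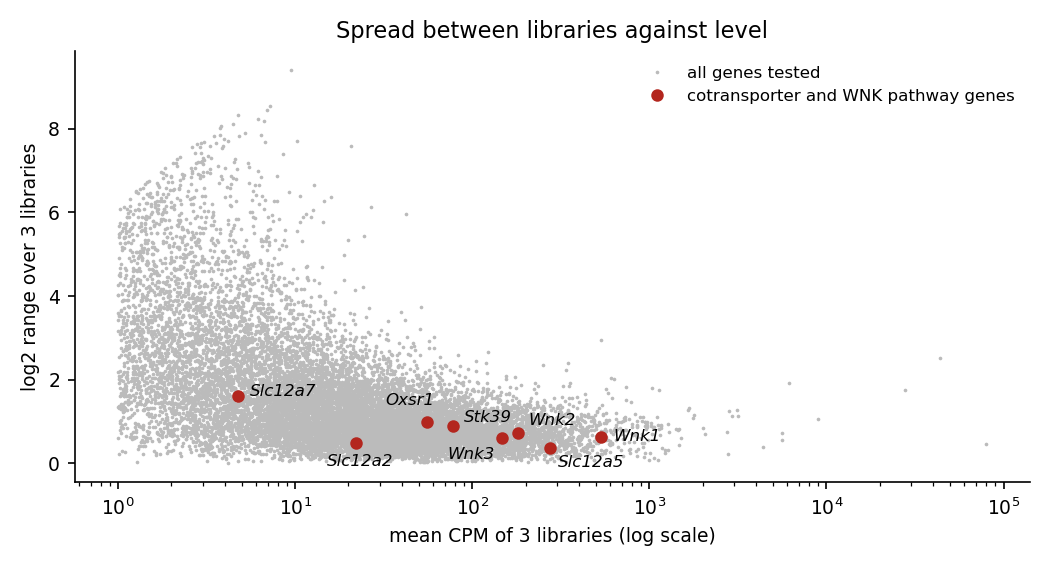
Log2 range of CPM between the highest and lowest of the 3 libraries against mean CPM (log scale), with a grey point for each of 14803 tested genes and red points for the 8 genes. The 8 genes lie inside the cloud, from 0.35 for Slc12a5 to 1.61 for Slc12a7.

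The libraries of Slc12a5 and Slc12a2 were both lowest in replicate 2 and highest in replicate 3, a pattern shared by many genes. Likeness was measured as the largest difference of centred log2 CPM in any of the 3 libraries, among 9764 other genes of 10 CPM or more. The closest to Slc12a5 were Sirpa, Fbxo41 and Sytl2, each within 0.010 of it, and 257 genes lay within 0.1. The closest to Slc12a2 were Zcchc12, Fbxo38 and Taf1b, each within 0.0078, and 179 genes lay within 0.1. With 3 libraries such a likeness is a description only.

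Regulators of the WNK and SPAK kinases were broadly present. All 12 genes of that list were detected and 0 of 12 were called as varying in the edgeR fit. Over all genes tested 0.222% were called, so 0 calls in a list this short says little about its genes. The ubiquitin ligase gene Nedd4l led at 602 ± 115 CPM (SD, n = 3), followed by Cul3, the cullin that acts with Klhl3 in WNK degradation, at 101 ± 50.5 CPM and by Cab39, the gene of the scaffold MO25 that activates SPAK and OSR1, at 98.8 ± 30.7 CPM. Cul3 measured 66.5, 159 and 77.6 CPM in replicates 1, 2 and 3, and replicate 2 stood above the others. Klhl3, the adaptor that binds WNK kinases, was low at 9.11 ± 3.65 CPM, and its relative Klhl2 measured 36.7 ± 19.9 CPM.

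Of the 17 genes listed for binding or regulating KCC2, all were detected and 0 were called, beside 0.222% of all genes tested. In mean CPM Epb41l1, the gene of the cytoskeletal protein 4.1N, led at 661 ± 184 CPM. Prkcb, a protein kinase C gene, followed at 610.5 ± 160 CPM and Ntrk2, the BDNF receptor gene, at 364 ± 48.0 CPM. Per kb of exon Prkcb stood first at 79.8 CPM, above Epb41l1 at 57.3 CPM. Ntrk2, at 18.8 CPM per kb, lay below Prkca (28.3) and Pacsin1 (22.5) of the same list. Neto2, whose product binds KCC2, measured 39.5 ± 6.49 CPM. Bdnf itself measured 7.29, 43.9 and 15.7 CPM in replicates 1, 2 and 3, and was not called as varying (edgeR, adjusted p = 0.488). It was highest in replicate 2, where Slc12a5 was lowest. The libraries of Slc12a5 differed by at most 1.28-fold, and a link between these genes was not tested.

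Among 21 other chloride and bicarbonate genes all were detected and 0 were called, beside 0.222% of all genes tested. In mean CPM Slc4a10, a neuronal sodium-bicarbonate transporter gene, led at 186 ± 34.7 CPM. Slc4a8, a sodium-driven chloride-bicarbonate exchanger, followed at 155 ± 32.2 CPM and Slc4a4, a sodium-bicarbonate transporter typical of astrocytes, at 147 ± 28.6 CPM. Per kb of exon Slc4a10 still led at 29.0 CPM. Lrrc8a, Car4 and Car2, at 21.2, 16.3 and 14.5 CPM per kb, stood above Slc4a4 (13.6) and Slc4a8 (11.9). Clcn2, the gene of the hyperpolarization-activated chloride channel ClC-2, measured 33.1, 17.2 and 46.1 CPM. Car7, the neuronal carbonic anhydrase that supplies bicarbonate, measured 5.40, 8.06 and 15.7 CPM.

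The sodium pump, which maintains the gradients that drive both cotransporters, was abundant. All 6 subunit genes on the list were detected and 0 were called, beside 0.222% of all genes tested. The beta subunit gene Atp1b1 measured 938 ± 184 CPM and Atp1b2, another beta subunit gene, 469 ± 195 CPM (SD, n = 3). Per kb of exon Atp1b1 reached 304 ± 59.6 CPM, against 36.9 ± 4.76 for Slc12a5.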

How the data were processed

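The authors deposited 1 file of raw read counts per gene symbol for each library. Per the submitters' processing notes, STAR 2.0.0e, HTSeq and the genome build mm10 were used. The authors' annotation, strand setting and kit are not given in the sources used here. HTSeq's 5 summary classes stayed out of library sizes. Entries without a counted feature made up 31.4%, 25.6% and 45.3% of all entries in replicates 1, 2 and 3. Those with more than 1 alignment made up 32.7%, 24.3% and 16.5%, and those ambiguous between genes 1.26% to 1.98%. Replicate 3 thus had the most entries without a feature and the fewest with more than 1 alignment, by share. The part of this in the levels was not tested. Counts were scaled to CPM.

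Exon lengths and coordinates come from GENCODE M21 (GRCm38, the assembly of mm10). They were found for 94.8% of the 12773 detected genes and for all 120 list genes, of which 1 (Epb41l1) was matched by a RefSeq synonym. CPM was divided by the merged exon length. Promoter windows are RefSeq's (GRCm38.p6).

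Ratios were taken within each library and tested with an exact permutation test over the libraries that flips the signs of the log2 ratios (two-sided). The smallest p is 0.25 with 3 libraries and 0.5 with 2, reached whenever all libraries agree in sign, whatever their spread. Variation between libraries was tested on the counts with edgeR 4.0.16 in R 4.3.3 (TMM, trended dispersion, intercept only, chi-square goodness of fit on 2 degrees of freedom, Benjamini-Hochberg). The test was also run on counts simulated from the trended dispersion of the same fit. That run cannot show the error rate of the test on these libraries. DESeq2 1.42.0 served as an alternative. Other steps used Python 3.11.15 and SciPy 1.17.1. Chi-square statistics per degree of freedom between libraries were 97.6 to 187, so no library was a copy of another.

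The 8 genes, the lists and the tests were chosen with earlier results of these data known. Named genes are the 8, the rest of the Slc12 family with Wnk4, and the 3 genes of highest mean CPM in each pathway list. Others (Usf1, Bdnf, Neto2, Klhl2, Klhl3, Clcn2, Car7) were named after their values were seen. Some genes the rule names are not reported here. The rule's marker genes are given as sums, apart from choroid plexus ones. Alternatives were other scalings, filters, dispersions and lengths, a pseudocount, and leaving out each replicate.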

Additional observations from a re-analysis of the deposited data

How the results depend on the processing

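No paired analysis was possible because there is 1 group. Of 42 recomputed ratios, 41 kept their sign; the exception was Wnk1 to Wnk2 without replicate 1 (from -0.041 to 0.33 on the log2 scale over the left-out replicates). A p of 0.05 was out of reach for all ratios. With a pseudocount of 1 on CPM per kb, Slc12a5 to Slc12a7 was 27.6-fold in place of 108-fold, since Slc12a7 is below 1 CPM per kb. Of 48 recomputed mean levels 46 moved by less than 1 SD; without the 3 most abundant genes in the total (Rn45s, Malat1, Meg3), Slc12a5 was 325 and Slc12a2 26.1 CPM. The count of all genes called as varying was 34. It was 17 among genes of 10 CPM or more, 783 with a common dispersion, 21 as DESeq2 dispersion outliers, and 4 to 24 with 1 replicate left out. The cause of these shifts was not tested beyond the fewer genes or libraries that some settings use. The count for the 8 genes was 0 under each alternative run. Slc12a7, with 42 to 131 counts, is the gene that depth limits most.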
